A study of Mus musculus with 2 samples.

Results

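The imprinted Dlk1-Dio3 domain of mouse chromosome 12 carries a large group of miRNAs that are transcribed from the maternal chromosome, together with the long noncoding RNAs Meg3, Rian and Mirg. The protein-coding genes of the domain, among them Dlk1, a membrane protein related to Notch ligands, Rtl1, a retrotransposon-derived protein of the placenta, and Dio3, which inactivates thyroid hormone, are expressed from the paternal chromosome. Its miRNAs are known from the embryo, the placenta, the brain, muscle and blood stem cells. The members described here were chosen by name: they are the lines of the deposited table whose miRNA number is 1 of 46 numbers known from this domain. The rule found 63 mature miRNAs from 41 hairpins, of 717 miRNAs in all, and all 63 lie between Dlk1 and Dio3 on the RefSeq positions of GRCm38.p6. For 7 of the 46 numbers (miR-493, miR-544, miR-654, miR-668, miR-758, miR-770 and miR-3071) no line was analysed here.

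Small RNA of tumor-associated macrophages (TAMs) and of spleen macrophages (SMs) was sequenced, with 1 library per group, both from BALB/c mice. TAMs came from tumors of 4T1, a mouse mammary carcinoma line, harvested 3 weeks after injection into the mammary fat pad of female mice aged 8 weeks, and were selected from the digested tumor with beads against CD11b once red blood cells had been lysed. Monocytes, neutrophils and NK cells also carry CD11b. SMs came from the spleen of naïve mice. Mice were bought at 6 to 8 weeks of age, and the isolated cells were checked by flow cytometry for CD11b and for a dye that marks dead cells. How SMs were selected, the age of their donors at harvest and the number of mice behind each library were not given in the sources used.

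The authors counted the reads of each miRNA and divided them by a library total, which gives TPM (reads scaled per library, without a correction for length), so that 1 read was worth 0.0750 TPM in TAMs compared with 0.0648 TPM in SMs. Summed over the lines of the table, known miRNAs had 7333652 counts in TAMs and 10108834 counts in SMs. Lines of near-identical miRNAs can hold the same reads, and with such lines counted once, which removes 25 lines and no member, the sums were 7252144 in TAMs and 9840628 in SMs. Each ratio divides the TPM of TAMs by that of SMs, with an exact 95% interval from both counts. Intervals cover counting error only, and PCR copies are not independent molecules. With 1 library per group no difference had a replicate check and no test was made. A higher level in a bulk library can come from more cells of a type or from more RNA per cell, and these cannot be told apart.

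The mature sequences of the 8 members with the most reads are printed first. They are followed by 2 near-identical pairs of the distal block, which were chosen after their values were seen. Sequences are written 5′ to 3′ as DNA, as deposited, with the seed (bases 2 to 8, which pair with targets) in capitals.
miR-127-3p: tCGGATCCgtctgagcttggct
miR-541-5p: aAGGGATTctgatgttggtcacact
miR-411-5p: tAGTAGACcgtatagcgtacg
miR-410-3p: aATATAACacagatggcctgt
miR-434-3p: tTTGAACCatcactcgactcct
miR-136-3p: aTCATCGTctcaaatgagtctt
miR-434-5p: gCTCGACTcatggtttgaacca
miR-409-5p: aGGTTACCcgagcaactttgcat
miR-381-3p: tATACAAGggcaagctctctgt
miR-300-3p: tATGCAAGggcaagctctcttc
miR-379-3p: tATGTAACatggtccactaact
miR-411-3p: tATGTAACacggtccactaacc

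The 63 members had 60 distinct seeds, and only 3 seeds were shared by members: miR-379-3p with miR-411-3p, miR-381-3p with miR-539-3p, and miR-370-5p with miR-1193-3p. A further 3 seeds were shared with a miRNA outside the domain. miR-329-3p, with 5 counts in each library, shares its seed with the most abundant of these outside miRNAs, miR-362-3p, which had 148 TPM in TAMs compared with 214 TPM in SMs. The seed of miR-410-3p was shared with miR-344d-3p, which had 4 counts in TAMs and 0 in SMs, and that of miR-377-5p with miR-672-5p, which had 3 counts in each library. miR-300-3p and miR-381-3p differ by G4A, T21G and C22T (base of miR-300-3p, position from the 5′ end, base of miR-381-3p), so that the first of these changes lies in the seed. miR-379-3p and miR-411-3p differ by T10C and T22C, outside the seed. Another such pair, miR-376b-3p and miR-376a-3p, differs by A4G, C13A and T20G. It had few reads and no clear excess in TAMs: miR-376b-3p had 0 counts in TAMs and 2 in SMs, and miR-376a-3p 3 in TAMs and 2 in SMs. Because the table also takes in variants of plus or minus 2 bp, reads of such near-identical miRNAs could be split between them, and their counts are uncertain to that extent.

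Summed over all 63 members, the domain had 628 TPM in TAMs compared with 171 TPM in SMs, which gives a ratio of 3.67 (3.51 to 3.83). That is 8370 counts in TAMs and 2641 counts in SMs, or 0.114% of the miRNA reads in TAMs (exact interval 0.112 to 0.117%) and 0.0261% in SMs (0.0251 to 0.0271%). The domain was therefore a minor part of both libraries. The summed level of all miRNAs was lower in TAMs, 550379 TPM, than in SMs, 655444 TPM, a ratio of 0.840. Most of the members' reads came from miR-127-3p, which held 66.0% of them in TAMs (64.9 to 67.0%) and 55.8% in SMs (53.9 to 57.7%). Without it the summed ratio was 2.82 (2.64 to 3.02).

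Counted one by one, 54 of the 63 members had a higher TPM in TAMs and 9 had a lower one. The 54 are 85.7% of the members, and 50.2% of all 717 miRNAs were higher. On the scale of TPM + 1, which damps low values, 13 members had at least a 2-fold higher level in TAMs and 0 a 2-fold lower one, while 14.2% of all miRNAs were higher and 16.0% lower by this rule. No test lies behind this count of 0, since a group of 1 library allows none. The 13 are 20.6% of the members, not far above the 14.2%. The rule passes few low miRNAs: 49 of the 63 members had under 50 counts over both libraries, and 1 of these 49, miR-379-3p, was among the 13. The excess of the members also turned with the rule: with 10 TPM added in place of 1, 4.76% of the members were at least 2-fold higher, against 7.67% of all miRNAs, and at 4-fold on TPM + 1 the shares were 3.17% of the members and 6.83% of all. On plain TPM, 38 members had a read in both libraries. Of these, 27 (71.1%) had at least a 2-fold higher level in TAMs. At least 2-fold lower was 1 member, miR-377-5p with 2 counts in TAMs and 7 in SMs. Among all 571 miRNAs read in both libraries the shares were 27.1% higher and 26.8% lower. The median plain ratio was 3.25 over the 38 members and 0.954 over the 571 miRNAs. Arms of a hairpin and neighbors on a transcript share their source, so the members are not independent of each other.

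**Figure D1:**
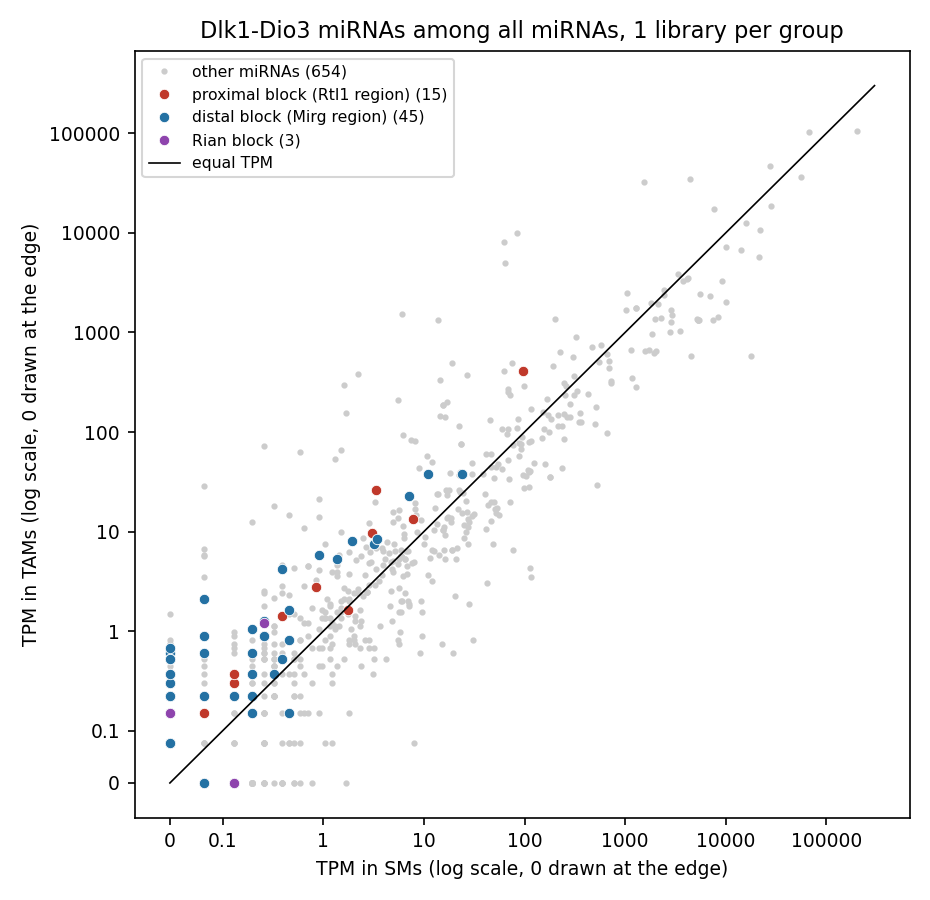
TPM of each miRNA in TAMs (vertical axis) against SMs (horizontal axis), both on log scales with 0 drawn at the edge, 1 point per miRNA, members colored by their block of the domain and the other 654 miRNAs in grey. The members lie mostly above the line of equal TPM, 54 of 63 of them, and the farthest along both axes is miR-127-3p, at 414 TPM in TAMs compared with 95.5 TPM in SMs.

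Presence and absence of reads ran the same way. In TAMs 57 of the 63 members had at least 1 read and in SMs 44 did. Reads in TAMs only were found for 19 members (30.2%, against 11.9% of all miRNAs), and reads in SMs only for 6 (9.52%, against 8.51% of all). The counts behind this were small: the members read only in TAMs had at most 9 counts and those read only in SMs at most 2. The shares of all miRNAs are not matched in level. A mean of at least 1 TPM was reached by 17 of the 63 members and by 427 of all 717 miRNAs. Lines of low level are more often without a read, and no share was taken over miRNAs of like level. A count of 0 allows a level of up to 3 counts, which is 0.225 TPM for TAMs and 0.195 TPM for SMs. Against that level in SMs, the counts of the 9 members with more than 3 counts in TAMs and none in SMs give folds of at least 1.54 to at least 3.47, which leave out the counting error of TAMs. With that error the lower ends of their exact intervals ran from 0.764 to 2.28, and those of miR-543-3p and miR-679-5p, with 4 counts each, lay below 1. The highest of them were miR-382-5p with 9 counts and miR-299a-5p with 8 counts in TAMs, and the others were miR-323-3p, miR-329-5p, miR-412-5p, miR-431-3p and miR-433-3p.

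Along the chromosome the members fall into 3 blocks on the plus strand. The proximal block holds 8 hairpins and 15 members between positions 109585789 and 109595388, from miR-337 to miR-136, and lies within the RefSeq bounds of Rtl1 on the opposite strand. In the mouse, miR-431, miR-433, miR-127, miR-434 and miR-136 are fully complementary to the Rtl1 transcript and guide its cleavage. The proximal block had 472 TPM in TAMs compared with 113 TPM in SMs, a ratio of 4.16 (3.95 to 4.39), and 3.21 (2.80 to 3.70) without miR-127-3p. It took 75.2% of the members' reads in TAMs and 66.3% in SMs.

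miR-127-3p, the most abundant member, had 414 TPM in TAMs compared with 95.5 TPM in SMs, a ratio of 4.34 (4.10 to 4.60). It ranked 70th of 717 miRNAs in TAMs and 114th in SMs. Its other arm, miR-127-5p, had 12 counts in TAMs and 4 in SMs, a ratio of 3.47 (1.05 to 14.8). In the next hairpin, Mir434, the arms lay on either side of that ratio. miR-434-3p had 26.0 TPM in TAMs compared with 3.37 TPM in SMs, a ratio of 7.72 (5.76 to 10.5), while miR-434-5p had 9.76 TPM in TAMs compared with 3.05 TPM in SMs, a ratio of 3.20 (2.28 to 4.57). The intervals of the arms did not overlap.

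miR-136, which lies 727 bases beyond Mir434, was nearest to a ratio of 1 in this block among hairpins with at least 10 counts. miR-136-3p had 13.4 TPM in TAMs compared with 7.85 TPM in SMs, a ratio of 1.71 (1.35 to 2.17), and miR-136-5p had 1.65 TPM in TAMs compared with 1.75 TPM in SMs, a ratio of 0.943 (0.512 to 1.72). The summed ratio of both arms was 1.57 (1.26 to 1.96) for Mir136, against 5.58 (4.48 to 6.997) for Mir434 and 4.34 (4.09 to 4.60) for Mir127. The intervals of Mir434 and Mir127 overlapped, and the interval of Mir136 overlapped neither. Farther toward Dlk1, miR-431-5p had 2.78 TPM in TAMs compared with 0.843 TPM in SMs, a ratio of 3.29 (1.71 to 6.75). miR-337-3p had 19 counts in TAMs and 6 in SMs, a ratio of 3.67 (1.41 to 11.2). The remaining members of the block were miR-431-3p, with 7 counts in TAMs and 0 in SMs, and miR-337-5p and the arms of miR-433, miR-540 and miR-665, with at most 5 counts in either library.

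**Figure D2:**
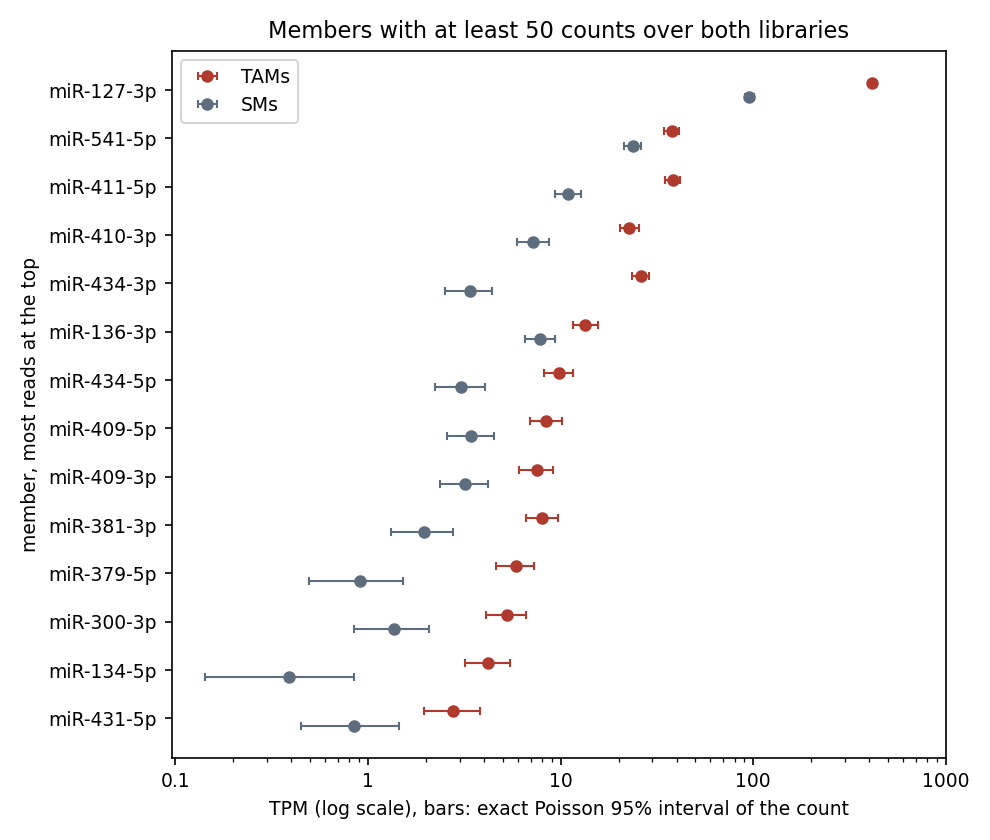
TPM on a log scale in TAMs (upper point of each pair) and SMs (lower point) of the 14 members with at least 50 counts over both libraries, with exact Poisson 95% intervals of the counts. The ratios run from 1.59 for miR-541-5p to 10.8 for miR-134-5p, and a member can reach 50 counts mainly through TAMs, as miR-134-5p did with 56 counts in TAMs and 6 in SMs.

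Rian, a noncoding RNA that also hosts many small nucleolar RNAs, gave few reads. miR-341-3p had 16 counts in TAMs and 4 in SMs, a ratio of 4.63 (1.49 to 19.03). miR-370-3p had 2 counts in TAMs and 0 in SMs, and miR-370-5p 0 in TAMs and 2 in SMs. The 3 members of this block together held 18 counts in TAMs and 6 in SMs, too few to set the block apart from the others.

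The distal block, from miR-379 to miR-410, is among the largest miRNA clusters of mammals, and mice without it are known for faults in the metabolism of newborns and in behavior. It holds 31 hairpins and 45 members between positions 109709060 and 109743795. Of the 45, 40 (88.9%) had a higher TPM in TAMs, against 50.2% of all miRNAs. Together the 45 members had 155 TPM in TAMs compared with 57.4 TPM in SMs, a ratio of 2.70 (2.49 to 2.92). This interval lies below that of the whole proximal block but overlaps that of the proximal block without miR-127-3p, 2.80 to 3.70.

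The 2 most abundant members of the distal block differed in their ratio. miR-541-5p had 37.7 TPM in TAMs compared with 23.7 TPM in SMs, a ratio of 1.59 (1.39 to 1.83), and was the most abundant distal member of SMs. miR-411-5p had 38.2 TPM in TAMs compared with 10.96 TPM in SMs, a ratio of 3.49 (2.92 to 4.17). In TAMs their counts were nearly equal, 503 for miR-541-5p and 509 for miR-411-5p, and in SMs they were 366 and 169. miR-410-3p, from the last hairpin of the block, had 22.7 TPM in TAMs compared with 7.20 TPM in SMs, a ratio of 3.16 (2.53 to 3.96). The arms of miR-409, which lies between miR-541 and miR-410, had ratios of 2.45 (1.75 to 3.46) for miR-409-5p and 2.36 (1.66 to 3.40) for miR-409-3p.

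The highest ratios of the distal block were those of miR-134-5p and miR-379-5p among members with at least 50 counts. miR-134-5p, which limits the growth of dendritic spines in rat neurons, had 4.20 TPM in TAMs compared with 0.389 TPM in SMs, a ratio of 10.8 (4.66 to 30.7), on only 6 counts in SMs. miR-379-5p, from the first hairpin, had 5.85 TPM in TAMs compared with 0.908 TPM in SMs, a ratio of 6.45 (3.62 to 12.3). Its other arm, miR-379-3p, had 28 counts in TAMs and 1 in SMs, a ratio of 32.4 (5.36 to 1325), and miR-411-3p, with the same seed, had 12 counts in TAMs and 1 in SMs, a ratio of 13.9 (2.06 to 594). A single read in SMs leaves both ratios very wide. The near-identical miR-381-3p and miR-300-3p had ratios of 4.13 (2.73 to 6.41) and 3.86 (2.34 to 6.62), with 8.03 TPM in TAMs compared with 1.95 TPM in SMs for miR-381-3p, and 5.25 TPM in TAMs compared with 1.36 TPM in SMs for miR-300-3p.

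The members with 10 to 49 counts numbered 14, and 13 of them had a higher TPM in TAMs, miR-136-5p being the exception. Among those of the distal block, miR-494-3p had 22 counts in TAMs and 7 in SMs, and miR-369-3p had 17 in TAMs and 4 in SMs. miR-299a-3p had 14 counts in TAMs and 3 in SMs, and miR-376c-3p 12 in TAMs and 4 in SMs. miR-369-5p, with 7 counts in TAMs and 6 in SMs, and miR-329-3p, with 5 in each, were nearest to a ratio of 1 there. Of the 35 members with under 10 counts, 27 had a higher TPM in TAMs. These 27 include all 19 members that were read only in TAMs, which had at most 9 counts. Shares of all miRNAs in the same count classes were not taken. The summed counts of the 49 members with under 50 counts were 317 in TAMs and 116 in SMs, a ratio of 3.16 (2.55 to 3.95), and the 14 members with at least 50 counts had a summed ratio of 3.69 (3.53 to 3.86). These classes are set by the counts of both libraries together, which a member can reach through TAMs alone, so the numbers within them are a description.

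**Figure D3:**
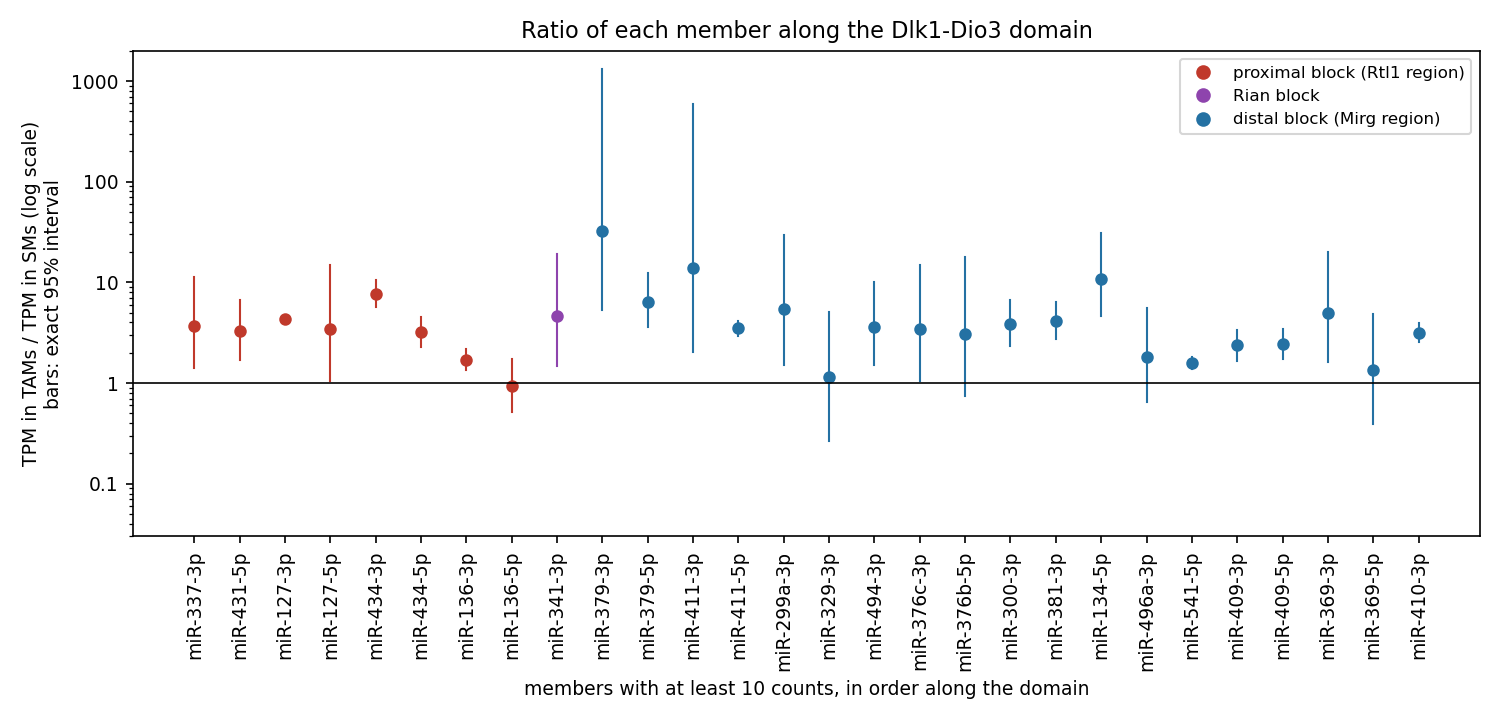
Ratio of the TPM of TAMs to that of SMs on a log scale, with exact 95% intervals, for the 28 members with at least 10 counts in their order along the domain, colored by block. The ratios run from 0.943 for miR-136-5p to 32.4 for miR-379-3p, and miR-136-5p is the only point below the line at 1.

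Summed by hairpin, 39 of the 41 hairpins had a higher TPM in TAMs, against 51.0% of the 482 hairpins of the whole table, grouped by name. The 2 with a lower one were Mir377, with 5 counts in TAMs and 7 in SMs, and Mir487b, with 2 counts in TAMs and 3 in SMs. No hairpin was without a read in TAMs, and 9, with at most 7 counts in TAMs, were without a read in SMs. The matching counts over all 482 hairpins were not taken, so these numbers are a description only.

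The use of the 2 arms of a hairpin does not depend on how the libraries are scaled, since both counts of a share come from the same library. Of 22 hairpins with both arms in the table, 8 had at least 10 reads in each library. The major arm was the same in TAMs and SMs for 7 of the 8, and for 94.4% of the 197 hairpins of the whole table with as many reads. Mir127 gave 99.8% of its reads from the 3p arm in TAMs and 99.7% in SMs, Mir411 2.30% in TAMs and 0.588% in SMs, and Mir409 was balanced in both, with 47.2% in TAMs and 48.0% in SMs. The exception was Mir369, with 70.8% of 24 reads in TAMs (exact interval 48.9 to 87.4%) and 40.0% of 10 reads in SMs (12.2 to 73.8%).

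Mir434 was the only 1 of the 8 whose intervals did not overlap, while 27.4% of the 197 hairpins had intervals that did not. Its 3p arm gave 72.7% of 477 reads in TAMs (68.5 to 76.7%) and 52.5% of 99 reads in SMs (42.2 to 62.7%), a difference of 20.2 percentage points. Among the 197 hairpins, 20 (10.2%) differed by at least as much, Mir434 included. Among the 155 hairpins of the table with at least 50 reads in each library, 8 (5.16%) did. The RefSeq hairpin is shown with the 5p arm and then the 3p arm in capitals. Its place is chr12:109594506-109594599 of GRCm38.p6, plus strand, opposite to Rtl1.
Mir434: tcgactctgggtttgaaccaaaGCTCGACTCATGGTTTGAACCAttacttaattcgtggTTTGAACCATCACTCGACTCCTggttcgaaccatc
Mir379 leaned the same way, with 26.4% in TAMs (18.3 to 35.9%) and 6.67% in SMs (0.169 to 31.9%), on 15 reads in SMs. Mir431 gave 7 of 44 reads from its 3p arm in TAMs and 0 of 13 in SMs, and Mir136 89.1% in TAMs and 81.8% in SMs, both with intervals that overlapped.

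**Figure D4:**
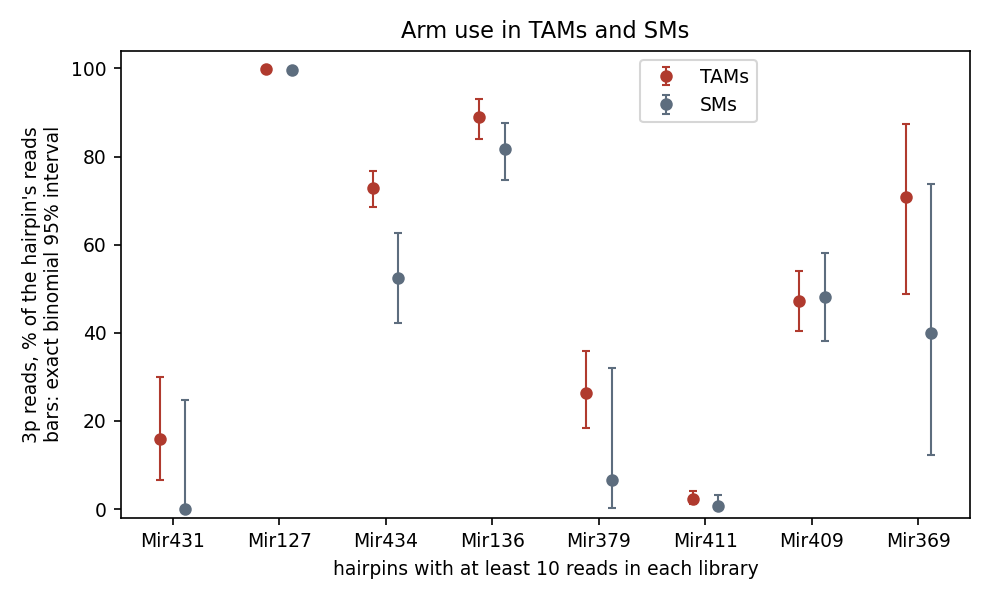
Share of reads from the 3p arm, in percent of the hairpin's reads, with exact binomial 95% intervals, in TAMs (left point) and SMs (right point) for the 8 hairpins with at least 10 reads in each library, in order along the domain. Only at Mir434, with 72.7% in TAMs and 52.5% in SMs, do the intervals stay apart.

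The domain encodes other miRNAs that the rule does not name. Of these, placed by position between Dlk1 and Dio3, the table held the arms of miR-673, whose hairpin lies between Meg3 and the proximal block. miR-673-5p had 35 counts in TAMs and 34 in SMs, a ratio of 1.19 (0.722 to 1.97), and miR-673-3p 1 count in TAMs and 0 in SMs. It was found by position after the values of the members were known.

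Markers of other cell types also differed between the libraries. Their part in the levels of the members was not tested. All 13 measured miRNAs of epithelial cells had a higher TPM in TAMs, 10 of them at least 2-fold on the scale of TPM + 1, with a summed level of 1909 TPM in TAMs compared with 286 TPM in SMs. Of 17 miRNAs of stromal cells 9 were at least 2-fold higher and 0 lower (8 of 16 with miR-199a-3p and miR-199b-3p, which share reads, counted once), with 9594 TPM in TAMs compared with 2655 TPM in SMs. This list holds miR-100, miR-125b and miR-152 besides miR-143, miR-145, miR-199 and miR-214. It is wider than the plan of this work, which named only miR-143, miR-145, miR-199a and miR-214 for stromal cells. No sum was taken over those alone. Both arms of miR-100 and every line of miR-125b are among the 9 higher ones. Most of the difference between 9594 TPM in TAMs and 2655 TPM in SMs came from miR-100-5p and miR-125b-5p. miR-100-5p had 5024 TPM in TAMs compared with 63.9 TPM in SMs. The study took it forward from these libraries, among other miRNAs, for its level in TAMs. The study also reported that it rose in a macrophage line cultured with tumor cells or with their medium. By qPCR the study found it higher in TAMs than in SMs. In human tissue the study reported more of its precursor in macrophages of breast cancer than in those of adjacent normal tissue. Which cells gave its level in these libraries was not tested. miR-125b-5p had 1326 TPM in TAMs compared with 13.7 TPM in SMs. miR-143-3p was near equal, with 2388 TPM in TAMs compared with 2420 TPM in SMs, and miR-145a-5p had a ratio of 1.35 (1.11 to 1.64). miR-199a-3p had 187 TPM in TAMs compared with 15.4 TPM in SMs. Of 8 miRNAs of skeletal muscle 4 were higher and 1 lower, with 95.4 TPM in TAMs compared with 16.9 TPM in SMs, mostly from miR-133a-3p at 82.3 TPM in TAMs compared with 7.46 TPM in SMs. miR-206-3p, a miRNA of skeletal muscle, had 32 counts in TAMs and 6 in SMs, and the 1 that was lower was miR-499-5p, with 1 count in TAMs and 122 in SMs.

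The lists of nervous tissue and of blood cells had lower summed levels in TAMs. Of 12 miRNAs of nervous tissue 1 was at least 2-fold higher and 6 were lower, with 59.4 TPM in TAMs compared with 167 TPM in SMs. The 1 that was higher was miR-218-5p, with 55 counts in TAMs and 14 in SMs. Of the miRNAs listed for that tissue, miR-124, miR-137, miR-153 and miR-383 were not analysed here. The 4 miRNAs listed as myeloid are the arms of miR-223 and of miR-142, a miRNA of leukocytes more broadly. Summed, they had 7752 TPM in TAMs compared with 34561 TPM in SMs, mostly from miR-142. miR-223-3p had 1413 TPM in TAMs compared with 8326 TPM in SMs. All 4 were at least 2-fold lower in TAMs. So were 3 of 4 miRNAs of lymphocytes, with 1170 TPM in TAMs compared with 4004 TPM in SMs. All 5 of red blood cells were also at least 2-fold lower, with 2701 TPM in TAMs compared with 11282 TPM in SMs. The arms of miR-486 share reads, and with these counted once the sums were 1376 TPM in TAMs and 6022 TPM in SMs. Both arms of miR-126, a miRNA of endothelial cells, were near equal, with 406 TPM in TAMs compared with 343 TPM in SMs. The leukocyte miRNA miR-142-5p, at 5729 TPM in TAMs compared with 21578 TPM in SMs, was present in both libraries.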

How the data were processed

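The authors matched small RNA reads of TAMs and SMs to known mouse mature miRNAs, with variants of plus or minus 2 bp added per the file headers, and deposited raw counts. The deposited TPM divides them by a library total, which is 13324721 reads in TAMs and 15422872 in SMs. Bowtie2 is named in the submitters' processing notes. Its version and the genome build were not given in the sources used. The deposited table also holds a chi-square P, a ratio and a mark of the authors' own comparison, which were not used, and 2 of its lines were not analysed here.

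Ratios have exact conditional binomial 95% intervals, shares have Clopper-Pearson intervals and levels have Poisson intervals (scipy 1.17.1 in Python 3.11.15). Only the ratio intervals and the 2-fold calls were tried on simulated data, whose counts held counting error alone. Counts of miRNAs past 2-fold used TPM + 1 over miRNAs with a read in either library. Members were chosen by name, and members, lists and thresholds were chosen with earlier results of these data known. Members with at least 50 counts over both libraries were named with their values. Others were named where they share a seed, a hairpin or an extreme value, after their values were seen. Lists were miRNAs of stromal, epithelial, endothelial, myeloid and red blood cells, lymphocytes, nervous tissue and skeletal muscle, the Sfmbt2 and mir-17~92 clusters and the miRNA of H19. Alternatives were pseudocounts, filters, folds and scalings (TMM of edgeR 4.0.16, size factors of DESeq2 1.42.0, in R 4.3.3). The shares of hairpins over the whole table were added after the values of the members were seen. Positions and the hairpin are from RefSeq on GRCm38.p6, where the sequences of 57 of the 63 members were equal to the deposited ones.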

Additional observations from a re-analysis of the deposited data

How the results depend on the processing

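No paired analysis was possible because a group of 1 library leaves nothing to pair, and no library could be left out. Of the 63 members 13 were at least 2-fold higher and 0 lower on TPM + 1, while 39 were higher and 4 lower with a pseudocount of 0.1 TPM (61.9% higher, against 27.9% of all miRNAs), 29 higher at 1.5-fold (46.0% against 22.7%) and 4 of 6 higher at a mean of at least 10 TPM (66.7% against 22.7%, where miR-434-3p and miR-410-3p pass that mean through TAMs). With a pseudocount of 10 TPM 3 were higher (4.76% against 7.67% of all) and at 4-fold 2 were higher (3.17% against 6.83%), so that the members' share fell below that of all miRNAs under both. With plain TPM and a read in both libraries, an alternative chosen after seeing the data, 27 of 38 were higher and 1 lower. Those are 71.1% and 2.63%, against 27.1% and 26.8% of all miRNAs. At a mean of at least 1 TPM, which members such as miR-379-3p pass through TAMs, 13 of 17 were higher. That is 76.5%, against 23.7% of all miRNAs, and 0 were lower. Under the other alternatives over 62 or 63 members, lines that share reads counted once among them, 12 to 18 were higher and 0 lower. Those 12 to 18 were 19.4 to 28.6% of the members, against 14.1 to 19.1% of all miRNAs. Of all miRNAs 10.2 to 16.1% were lower. The median ratio of TPM + 1, 1.34, was 2.78 with a pseudocount of 0.1 TPM, 1.04 with 10 TPM, 2.66 at a mean of at least 1 TPM, 3.08 at 10 TPM (both raised by members that pass the mean through TAMs, such as miR-434-3p), 1.45 with totals without the miRNAs of highest level and 3.25 on plain TPM. Leaving the miRNAs of highest level out of the totals multiplies each ratio by 1.41, which is a shift of 0.49 on the log2 scale for all miRNAs alike, and the sum of miRNA counts shifts them by 0.25. The summed ratio, 3.67, was 3.89 with TMM, 3.85 with DESeq2, 4.37 with the sum of miRNA counts, 5.17 with totals without the miRNAs of highest level, 2.82 without miR-127-3p and 2.92 without the 5 most abundant members, the last chosen after seeing the data. The members' share of miRNA reads, 0.114% in TAMs and 0.0261% in SMs, was 0.0628% and 0.0171% of the authors' totals, and 0.0388% and 0.0116% without miR-127-3p. The major arm was the same for 7 of 8 hairpins, against 94.4% of all 197 hairpins at that minimum of 10 reads. At a minimum of 5 reads it was the same for 11 of 14, where no share of all hairpins was taken. The 4 scalings multiply every ratio by more than 1, so the direction of the 14 members with at least 50 counts, all above 1, could not change. Of their 56 rescaled ratios 9 left the counting interval. Counts under 10 limit 35 of the 63 members.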

Other observations

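Other miRNA groups of the table give values beside those of the domain, with no test between them. The Sfmbt2 repeat cluster, a large rodent group in an intron of the imprinted gene Sfmbt2, had 353 TPM in TAMs compared with 219 TPM in SMs over 60 miRNAs, a summed ratio of 1.61, with 7 at least 2-fold higher and 2 lower on the scale of TPM + 1. Many of its lines hold the same reads, so that this level and these calls count some reads several times: miR-669a-5p and miR-669p-5p both had 1002 counts in TAMs and 361 in SMs, and the 2 lower ones, miR-467a-3p and miR-467d-3p, both had 87 counts in TAMs and 294 in SMs. With lines that share reads counted once, an alternative chosen after seeing the data, 46 remained, with 212 TPM in TAMs compared with 123 TPM in SMs, a ratio of 1.72, and 6 were higher and 1 lower. miR-675-3p, from the imprinted noncoding RNA H19, had 8 counts in TAMs and 0 in SMs. The mir-17~92 cluster, a polycistron of dividing cells, had 4742 TPM in TAMs compared with 7314 TPM in SMs over 12 miRNAs, a ratio of 0.648, with 0 at least 2-fold higher and 5 lower on the scale of TPM + 1.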
